A study of Arabidopsis thaliana with 2 samples.

Results

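Kinesin-5 and kinesin-14 are families of microtubule motor proteins, and some of their members build the mitotic spindle. The 10 Arabidopsis thaliana genes described here were chosen by locus code: 4 kinesin-5 genes (RSW7, which is AT2G28620, AT2G36200, AT2G37420 and AT3G45850) and 6 kinesin-14 genes (ATK1, ATK2, ATK3, ATK5, AT1G72250 and AT2G22610). The kinesin-14 family is larger than these 6: ATK4, KP1, ZWI, KAC1 and KAC2 also belong to it and are counted below among the other kinesin loci. Most of those loci were given no family, so more of them may be kinesin-14 genes, with or without a peak. The 10 genes stand among 27444 protein-coding genes on the 5 nuclear chromosomes. A gene was counted as having a peak when a MYB3R3-GFP peak overlapped the gene or the 1000 bp on either side of it.

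The peaks came from whole seedlings of the ecotype Col-0, 9 days after germination, kept at 22 °C under constant light in a liquid medium that held 2% sucrose. The plants carried MYB3R3, a MYB protein with 3 repeats, fused to green fluorescent protein (GFP). An anti-GFP antibody pulled down the fixed chromatin for 1 ChIP library, and 1 input library of the MYB3R3-GFP plants was also made. Of these, the ChIP library is described through its 2931 deposited peaks, while the input was not used here. The sources used here give neither the promoter that drives the fusion, nor the number of independent lines, nor whether the endogenous MYB3R3 protein was present. Whole seedlings hold dividing and non-dividing cells, and a peak does not show in which cells the protein was bound.

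Spindle motors slide microtubules against each other. Kinesin-5 motors work as tetramers with motor domains at both ends, walk towards the plus ends and push antiparallel microtubules apart, which keeps the poles of the spindle separate. The kinesin-14 motors ATK1 and ATK5 carry the motor domain at the other end of the chain from most kinesins. They walk towards the minus ends and gather microtubules into poles. Where the motor domain lies in the other kinesin-14 proteins was not examined. Plant spindles form without centrosomes, and motors that gather microtubules are thought to focus their poles. MYB proteins with 3 repeats are known for acting on genes that are expressed at the G2 and M phases of the cell cycle, as activators or as repressors; MYB3R3 is known as a repressor.

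Peaks lay at 8 of the 10 spindle kinesin genes, 3 of 4 kinesin-5 genes and 5 of 6 kinesin-14 genes. Among all protein-coding genes, 3828 of 27444 (13.9%) had a peak within 1000 bp. The kinesin genes are long, with 4491 to 6030 bp against a median of 2078 bp for all protein-coding genes, so their windows are wider than most. Of the 1444 protein-coding genes in that same length range, 292 (20.2%) had a peak. Each of the 8 kinesin genes had exactly 1 peak, as did 3396 (88.7%) of all protein-coding genes with a peak. A single ChIP library gives no replicate error, so no test was made, and the counts and scores describe this list of peaks. The genes were chosen with earlier results of these data known, so they were not picked blind to the peaks.

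Peak scores fell on both sides of the median over all peaks. The score is the authors' own number for each peak. The sources used here do not give its formula, so scores and their medians serve only to order peaks within this list. A difference in score has no known scale. RSW7, AT1G72250, AT2G36200, ATK5, ATK1 and AT2G22610 had scores from 652 down to 89.3 and ranks 2 to 178 of 2931. AT2G37420 and ATK3 had 13.9 and 6.89, both below the median of 17.4 over all peaks. No spindle kinesin gene had a score between 13.9 and 89.3, an interval that held 1721 of the 2931 peaks (58.7%). Both ends of that interval are scores of these genes, so it is empty by construction and does not show separate sets. A score of 89.3 or more was reached by 178 peaks (6.07%). A peak among the 732 highest-scoring lay within 1000 bp of 6 of the 10 spindle kinesin genes, and of 1134 (4.13%) of all protein-coding genes. In the length range of the kinesin genes the share was 7.06% (102 of 1444 genes).

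**Figure D1:**
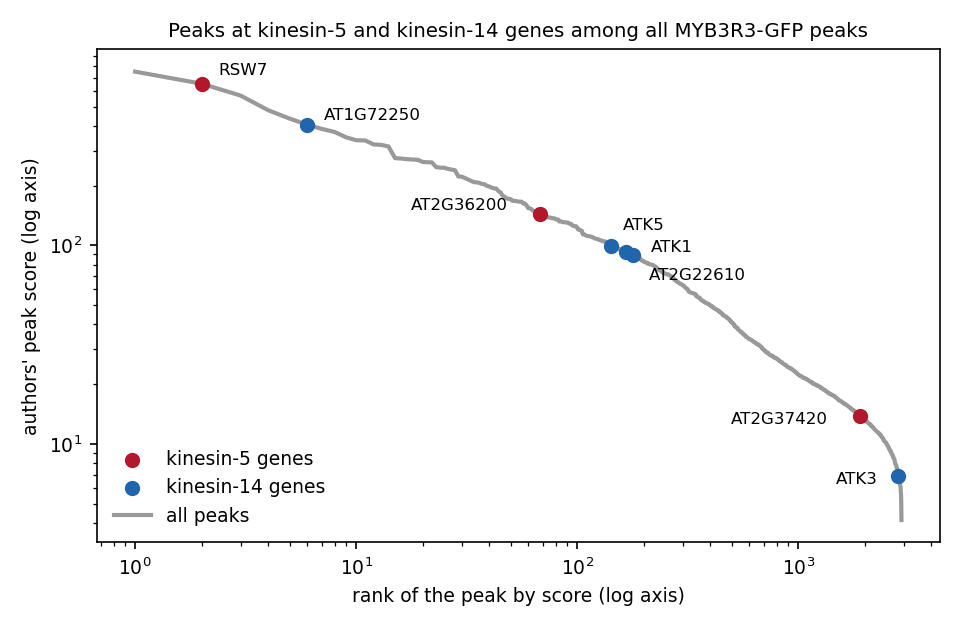
The score given by the authors (vertical, log axis) is plotted against the rank of the peak (horizontal, log axis) for all 2931 peaks (grey line), with the peaks at kinesin-5 genes (red) and kinesin-14 genes (blue) as points. RSW7 and AT1G72250 stand at ranks 2 and 6, another 4 genes stand between ranks 68 and 178, and AT2G37420 and ATK3 stand at ranks 1900 and 2841.

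RSW7 had the strongest peak of the 10 genes. It encodes a kinesin-5 whose temperature-sensitive mutant is known for collapsed spindles. Its peak lay on chromosome 2 (TAIR10, chr2:12270425-12271044), had a score of 652 and was 620 bp wide; 83 peaks of the list (2.83%) were at least as wide. The peak covered the end of the gene at the higher coordinate, with 339 bp inside the gene and 281 bp outside. Its midpoint was 28.5 bp inside the gene. No other protein-coding gene lay within 1000 bp of this peak, but an annotated long non-coding RNA gene, AT2G08280, overlapped it and the microRNA gene MIR5637 lay 52 bp from it. The next protein-coding gene on that side, AT2G28625, lay 1518 bp beyond RSW7. A second, weaker peak with a score of 36.4 lay 1367 bp from RSW7 and so outside the 1000 bp window.

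AT2G36200, also a kinesin-5 gene, had a score of 144, which was rank 68. The peak (chromosome 2, chr2:15185120-15185562) was 443 bp wide and covered the end of the gene at the higher coordinate, with its midpoint 64 bp inside. It lay 478 bp from the next gene, AT2G36210, which was therefore counted as having the same peak. The nearest gene end was that of AT2G36200.

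AT2G37420 differed from these kinesin-5 genes in both score and position. Its peak (chr2:15700339-15700536) had a score of 13.9, at rank 1900, and was 198 bp wide, close to the narrowest peak of the list at 196 bp. It lay wholly inside the gene, starting 128 bp from the end at the lower coordinate, and its midpoint was 226.5 bp inside. This was the only one of the 8 peaks that did not cover a gene end. TIM17-2, a gene of the protein import complex of mitochondria, lay 985 bp from it, just within the window.

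AT3G45850 was the kinesin-5 gene with no peak. The nearest peak, with a score of 45.8, lay 34842 bp away, so the gene did not come near the 1000 bp limit. No read depth is known for the list, and binding below the authors' threshold was not detectable.

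AT1G72250 had the strongest kinesin-14 peak. Its score of 405 was the 6th highest of the list. Only 16 protein-coding genes (0.0583%) had 1 of the 10 highest-scoring peaks within 1000 bp, and RSW7 and AT1G72250 were among them. The peak (chromosome 1, chr1:27192455-27193163) was 709 bp wide, the widest of the 8, and 48 peaks (1.64%) were at least as wide. It covered the end of the gene at the lower coordinate, with 424 bp inside and 285 bp outside, and touched the window of no other gene. AT2G22610 had a score of 89.3 at rank 178, in a peak of 528 bp (chromosome 2, chr2:9599163-9599690). The midpoint of that peak was 6.5 bp inside the gene, the closest to a gene end of the 8. AT2G22600 lies 193 bp from AT2G22610 on that side, and the peak overlapped both genes.

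Among ATK1, ATK2, ATK3 and ATK5, the peaks of ATK5 and ATK1 had the higher scores. ATK5 and ATK1 encode minus-end-directed motors of the spindle; ATK5 is known for its part at the mitotic spindle poles and ATK1 for its part in the spindle of male meiosis. Their scores were 98.8 for ATK5 (rank 142) and 92.1 for ATK1 (rank 166). The ATK5 peak (chromosome 4, chr4:2674956-2675460) was 505 bp wide, with 397 bp inside the gene and 108 bp outside, and touched no other gene. The ATK1 peak (chromosome 4, chr4:11333925-11334459) was 535 bp wide, with 244 bp inside and 291 bp outside. Of the 8 midpoints, that of the ATK1 peak alone lay outside the kinesin gene, by 24 bp. This peak also overlapped PSBQA, a gene of the oxygen-evolving complex of photosystem II, 184 bp from ATK1.

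ATK2 and ATK3, also named KATB and KATC, encode closely related kinesin-14 proteins. ATK3 had a peak with a score of 6.89 at rank 2841 (chromosome 5, chr5:22209346-22209628), among the weakest of the list. At 283 bp it was near the median width of all peaks, 275 bp, and it covered the end of the gene with its midpoint 84 bp inside. ATK2 had no peak, and the nearest one, with a score of 10.8, lay 33077 bp away. The sources used here do not say how reads that fit more than 1 of these related genes were treated.

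Most peaks of the spindle kinesin genes lay at a gene end, as did most high-scoring peaks near genes. Of the 8 peaks, 7 covered the end of a protein-coding gene (87.5%), against 1400 of the 2729 peaks that lay within 1000 bp of any protein-coding gene (51.3%). Of the 702 such peaks among the 732 highest-scoring, 508 (72.4%) did. In 7 of the 8, the midpoint lay within 200 bp of a gene end, against 61.3% of the 2729 peaks and 72.1% of the 702. Midpoints lay inside a protein-coding gene for 7 of the 8, against 59.4% of the 2729 and 60.3% of the 702. These shares were not tested. For 8 peaks, the gap to the share of the 702 is about 1 peak for covered gene ends and for midpoints within 200 bp. It is larger for midpoints inside a gene, but these shares were not matched for gene length. The kinesin genes are 4491 to 6030 bp long, against a median of 2078 bp for all protein-coding genes. The peaks of AT2G37420 and ATK3 are also not among the 702. The end was at the higher coordinate for RSW7, AT2G36200 and ATK1 and at the lower coordinate for the other 5. Strand was not used, so whether these ends are 5′ or 3′ is not stated. For all 8 peaks the nearest protein-coding gene end was that of the kinesin gene, although 4 of them touched the window of another protein-coding gene.

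**Figure D2:**
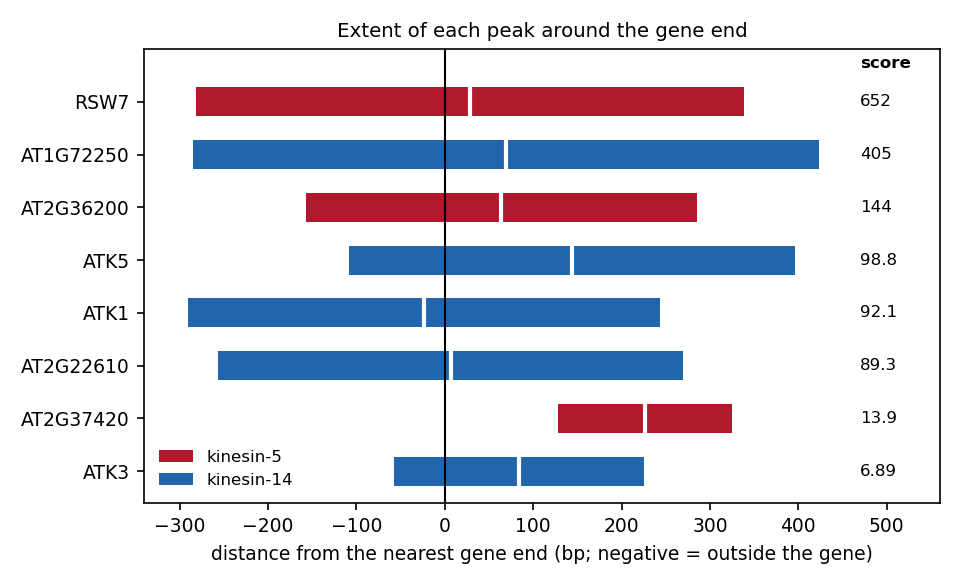
Bars show the extent of the 8 peaks along the distance from the nearest end of the kinesin gene in bp (0, black line; negative values are outside the gene), in order of score from top to bottom, with white ticks at the midpoints, the score at the right and the family in red (kinesin-5) or blue (kinesin-14). The black line crosses 7 bars, and that of AT2G37420 begins 128 bp inside the gene.

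The high-scoring peaks were also the wide ones. Widths were 443 to 709 bp for the 6 high-scoring genes and 198 and 283 bp for AT2G37420 and ATK3. Score and width were correlated over the whole list (Spearman rho 0.57 over 2931 peaks of 1 library, given as a description). The 8 peaks of the kinesin genes had a median width of 516.5 bp, and the 732 highest-scoring peaks had 388.5 bp. These medians are not at like scores. The 6 high-scoring genes had scores of at least 89.3, while the 732 peaks reach down to 28.6.

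Genes with scores next to those of the spindle kinesins are given for the strongest and for ATK5, the upper of the middle pair. Next above RSW7 was AT5G40460, whose highest peak scored 749.6, and next below was CYCA1;1, an A-type cyclin gene, with 568. ATK5 had FBA5 above it, with 99.01, and AT5G60142 and AT5G60150 below it, which share a peak of 98.6. The likeness is in the score within this list alone.

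RSW7 and AT1G72250 scored above every gene in a list of 50 further kinesin loci. Against 8 of the 10 spindle kinesin genes, 26 of the 50 loci (52%) had a peak within 1000 bp. Against 6 of the 10, 19 of the 50 (38%) had 1 of the 732 highest-scoring peaks. Scores ran from 6.89 to 652 with a median of 95.5 over the 8 spindle kinesin genes with a peak, and from 6.62 to 167.5 with a median of 41.6 over the 26 other loci. The difference between the lists was not tested. Among all protein-coding genes, 13.9% had a peak and 4.13% had 1 of the 732 highest-scoring. The 50 loci are 2575 to 12530 bp long, with a median of 5977 bp, and these shares are not matched for that length. The highest 8 of the other loci were AT5G60930 (167.5), AT1G18550 (148.6), KINESIN-12B (130.9), ZCF125 (130.4), AT3G10310 (125.3), AT4G14330 (107.5), HIK (95.7) and AT3G44050 (86.1). The AT1G18550 peak lay outside that gene, with its midpoint 829.5 bp from it. KINESIN-12B is a motor of the phragmoplast, the array that lays down the cell plate, and HIK activates the MAP kinase cascade of cytokinesis.

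The gene table calls 16 of the 50 loci kinesins by name, and 8 of these had a peak. Beside KINESIN-12B and HIK these were POK2 (72.1), PAKRP1 (44.3), POK1 (43.97), the kinesin-14 gene ATK4 (36.4), AT3G63480 (34.6) and ARK2 (6.62). POK1 and POK2 orient the division plane, and PAKRP1 is the partner of KINESIN-12B at the phragmoplast. The 8 without a peak were TES, KINESIN-13A, ZWI, KP1, KAC1, KAC2, MRH2 and ARK3. Among these, TES is a relative of HIK that acts in cytokinesis of male meiosis, and KAC1 and KAC2 act in chloroplast movement. Genes with and without a peak thus both included cytokinesis kinesins.

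A list of 16 spindle and microtubule partner genes had peaks at 10 (62.5%), and 8 of the 16 (50%) had 1 of the 732 highest-scoring. Among all protein-coding genes these shares were 13.9% and 4.13%. The 16 genes are 1707 to 14188 bp long, a wider range than that of the spindle kinesin genes. The highest scores were those of TPX2, a spindle assembly factor (214.8), MAP65-4, a microtubule bundler (162.5), the Aurora kinase gene AUR2 (93.5), PLE, which is MAP65-3 (80.05), and AUR1 (79.3). The AUR2 peak lay deep in the gene, with its midpoint 1293 bp from the nearest end of AUR2. TPX2 thus ranked below RSW7 and AT1G72250 and above the other spindle kinesin genes. No peak was found at AUR3, MAP65-1, MAP65-2, EB1a, EB1B or AUG1.

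**Figure D3:**
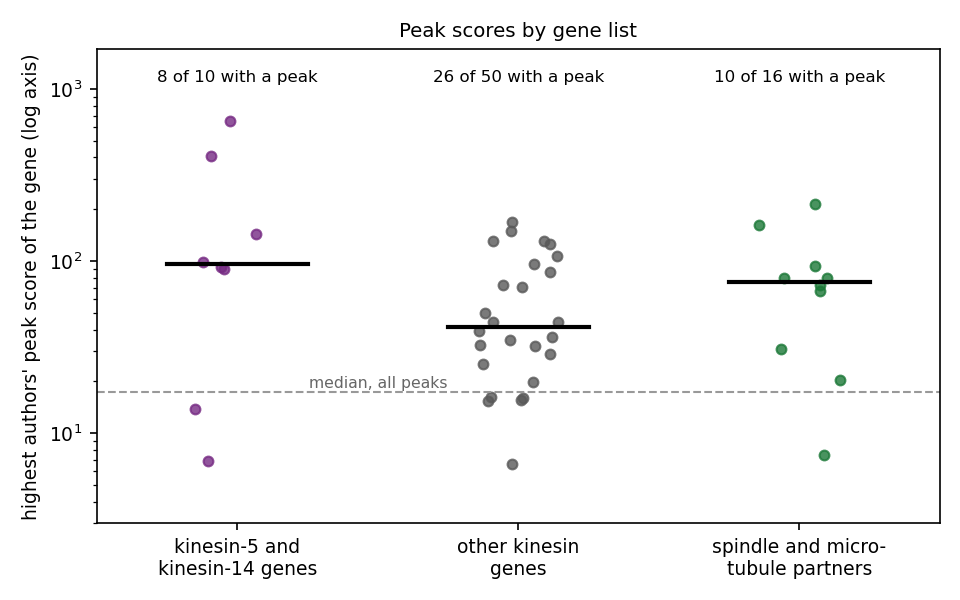
The highest score of each gene with a peak (points; log axis) is shown for the 10 spindle kinesin genes, the 50 other kinesin loci and the 16 partner genes, with the median of the genes that have a peak as a black bar and the median of all peaks as a dashed line. Genes without a peak are only in the counts above the points. RSW7 (652) and AT1G72250 (405) lie above every gene of the other lists.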

How the data were processed

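Per the submitters' processing notes, Bowtie 0.12.7, SAMtools 0.1.18, MACS2 (no version given) and the build TAIR10 were used; the sources used here give no role for each, no threshold and no use of the input. The deposited list gave a chromosome, start, end and a score of the authors for each of 2931 peaks, with the start taken to count from 0. Read depth is unknown, so no interval could be given.

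Gene positions came from a RefSeq table of TAIR10.1, matched by locus code (76 of 76 listed loci). The assembly is named otherwise than the peaks' build, so none of its coordinates are printed. As a check, peaks were moved along the chromosomes in steps of 100 bp up to 5000 bp: unmoved, 77.3% of midpoints lay within 500 bp of a gene end, more than at any other step, and the median for moves of at least 4000 bp was 40.7%. A peak counted for every gene whose window (gene and 1000 bp on either side) it overlapped by at least 1 bp.

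Members and lists were chosen with earlier results of these data known. The list of 50 kinesin loci was written from general knowledge, and 34 of them are not called kinesin in the table, so they appear by locus code or symbol without a family. RSW7, AT2G36200, AT2G37420, AT3G45850, AT1G72250 and AT2G22610 are not called kinesin in the table either. Their families come from the choice of genes by locus code. Named were all 10 genes, genes that share a peak with them, the 8 highest other kinesins, the 5 highest partners, and the genes next in score to the strongest and the middle gene. The partners without a peak, and the other kinesins that the table names so, were named with their values in view. The overlap code was tested on simulated peaks. Promoter motifs, protein features and the nearest gene start were planned but not run, since no sequence or strand was used. Alternatives were windows of 0, 500 and 2000 bp, the 1467 and 732 higher-scoring peaks, midpoints, peaks touching 1 gene and, added after the data were seen, the nearest gene end and the kinesins named so in the table. Tools were SciPy 1.17.1, NumPy 2.4.6, pandas 2.3.3 and matplotlib 3.10.9 under Python 3.11.15.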

Additional observations from a re-analysis of the deposited data

How the results depend on the processing

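The count of spindle kinesin genes with a peak was 8 with windows of 0, 500 and 2000 bp, with midpoints and with the nearest gene end. Every one of the 8 peaks overlaps its gene, the nearest gene end of each is that of the kinesin gene, and the other 2 genes had their nearest peaks 34842 and 33077 bp away. The count was 6 with the 1467 or the 732 higher-scoring peaks, without AT2G37420 and ATK3. With only peaks that touch the window of 1 protein-coding gene it was 4 (40%), without AT2G36200, AT2G37420, ATK1 and AT2G22610. The other kinesin genes then numbered 12 (24%), the partner genes 3 (18.8%) and all protein-coding genes 1158 (4.22%). The count of all protein-coding genes was also 2303 (8.39%) with the gene alone and 2505 (9.13%) with the nearest gene end. With windows of 500 and 2000 bp it was 3278 (11.9%) and 4885 (17.8%), and with midpoints 3682 (13.4%). Other kinesin genes numbered 23 (46%), 24 (48%) and 28 (56%) with windows of 0, 500 and 2000 bp. They numbered 26 (52%) with midpoints and 23 (46%) with the nearest gene end. The count of all protein-coding genes was 2082 (7.59%) and 1134 (4.13%) with the 1467 and 732 higher-scoring peaks. Other kinesin genes numbered 8 of 16 when only those named so in the table counted. By construction the window of 2000 bp is wider, and the other settings use fewer peaks, shorter windows, a stricter overlap or fewer genes. The scores of the spindle kinesin genes say nothing about stability, since each gene has 1 peak with a fixed score that is either kept or lost. The planned motif, protein and nearest-start alternatives were not run. No paired analysis was possible because the list comes from a single ChIP library, and so none was left out.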

Other observations

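ATK1 and ATK5 each lie next to a gene of the same photosystem II family, and the peak of each kinesin gene is at the end that faces it. PSBQA lies 184 bp from ATK1, and the ATK1 peak overlaps both genes. PSBQ-2 lies 1821 bp from ATK5, and the ATK5 peak reaches 108 bp beyond ATK5, outside the 1000 bp window of PSBQ-2. The scores were 98.8 for ATK5 and 92.1 for ATK1. This neighbourhood was noticed after the data were seen and was not tested.

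Within 20000 bp of the gene, AT2G37420, AT1G72250 and AT2G22610 had their own peak alone, RSW7, AT2G36200 and ATK1 had 2 peaks, and ATK3 and ATK5 had 3. AT3G45850 and ATK2 had none in that range. Peaks within 20000 bp were not counted for all protein-coding genes. Whether these counts differ from the general level is therefore unknown, and they set no genes apart.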
